A study of Mus musculus with 6 samples.

Results

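The caspases are cysteine proteases that cut proteins after aspartate residues, and 8 mouse caspase genes, Casp1, Casp2, Casp4, Casp6, Casp8, Casp9, Casp12 and Casp14, were followed in pre-B leukaemia cells. They were taken as a named list and not by their values, and they are 8 of 19938 genes with a probe set assigned to a single gene. Each of the 8 has exactly 1 such probe set. The cells were mouse pre-B cells of strain 129P2/OlaHsd, transformed with BCR-ABL1, the fusion kinase of Philadelphia chromosome-positive acute lymphoblastic leukaemia. Every sample was Ptpn6 +/fl, that is, with 1 floxed copy of the gene for the tyrosine phosphatase SHP-1, so that a normal copy remains even after recombination. The 3 control samples carried PMIP-ERT2, a vector with the tamoxifen-responsive receptor domain alone, and the 3 others carried PMIP-CRE-ERT2, in which that domain is joined to Cre recombinase. Both groups were selected with puromycin and exposed to 0.5 micromolar 4OH-Tamoxifen for 2 days before RNA was taken. The comparison asks how the cells differ when Cre can act on the floxed Ptpn6 allele, and effects of Cre itself cannot be told apart from those of the allele.

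Caspases are made as inactive precursors. Initiator caspases such as caspase-8 and caspase-9 are brought together by adaptor proteins, activate each other and then cleave executioner caspases, which dismantle the cell. Inflammatory caspases are instead assembled on inflammasomes, where they mature interleukins and cut gasdermin D to open pores in the membrane. An array reads the messenger RNA of the precursor and not its cleavage, so activity is outside what was measured here. Tyrosine phosphorylation of caspase-8 by Src-family kinases, reversed by SHP-1, has been described in neutrophils, which is a further layer that transcript levels do not show.

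Ptpn6 itself did not separate the groups. Its log2 expression was 11.25, 11.39 and 11.39 in the ERT2 arrays and 11.36, 11.25 and 11.20 in the CRE-ERT2 arrays. The change was -0.07 (95% interval -0.24 to 0.10, limma adjusted p = 0.759), and an exact two-sided permutation test gave p = 0.3. Where its probe set lies relative to the floxed part is not known here, so the level checks nothing about the labels. Array medians ran from 7.90 to 7.98. The labelled cell type showed in the B-lineage list, whose mean level was 12.11 to 12.21 in the ERT2 arrays. Its pre-B genes Cd79a, Vpreb1, Igll1, Pax5 and Ebf1 had mean levels from 11.08 to 14.40 in the ERT2 group, while Rag2 of the same list had 8.68. Of 11 B-lineage markers measured only Rag2, a recombinase subunit, passed the test, with a fall of 0.53, and 2 had an unadjusted p under 0.05. The CRE-ERT2 arrays lay wholly above the ERT2 arrays for 5 of the 11 and wholly below for 1. Over all genes those shares were 6.92% and 15.5%. The median change of the list was 0.09, beside -0.03 over all genes. The marker counts stand beside 4.58% of all genes passing and 16.4% at an unadjusted p under 0.05. Of the other cell types' markers, 0 of 12 myeloid, 0 of 11 T and NK cell, 0 of 9 stromal and 0 of 7 keratinocyte genes passed, and 1 of 7 erythroid and megakaryocyte genes, Hemgn, rose by 0.59 (limma; at an unadjusted p under 0.05 the first 4 of these lists gave 1, 0, 0 and 0 genes). The mean level of the myeloid list was 7.58 to 7.68 in the ERT2 arrays and 7.58 to 7.66 in the CRE-ERT2 arrays.

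None of the 8 caspase genes passed the test between the groups. With limma the count was 0 of 8 at an adjusted p under 0.05, against 4.58% of all genes (2.3% higher and 2.28% lower), and 2 of 8 at an unadjusted p under 0.05, against 16.4%. Changes are given as log2 differences, CRE-ERT2 minus ERT2, and each p was adjusted (Benjamini-Hochberg) across the 19938 genes tested. The 8 changes ran from -0.11 for Casp14 to 0.24 for Casp6, with 4 above and 4 below 0. Their median was 0.02, beside -0.03 over all genes. The groups did not overlap for 3 of the 8, Casp6 and Casp8 (higher in CRE-ERT2) and Casp2 (lower), against 22.5% of all genes, or 6.92% higher and 15.5% lower. Among all genes the smallest change that passed was 0.27, which no caspase gene reached. The 95% intervals, each for its gene alone, together span -0.30 to 0.41, so for every one of the 8 a rise above 1.33-fold or a fall below 0.814 of the control level lies outside its interval. In RNA from whole cultures, a gene active in fewer cells and less RNA per cell cannot be told apart.

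**Figure D1:**
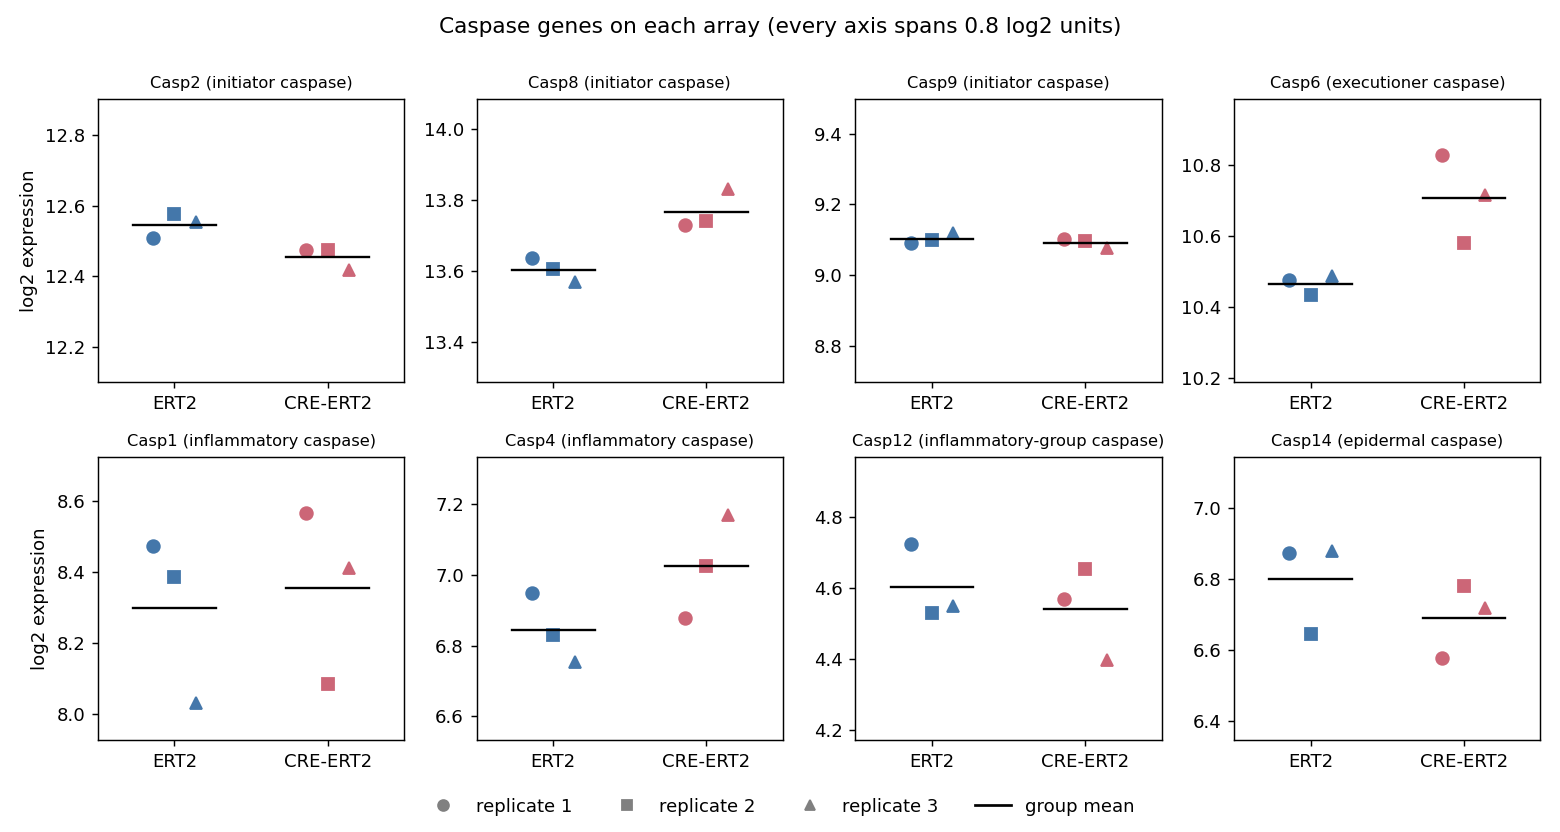
Log2 expression (vertical axis) of the 8 caspase genes on each of the 3 ERT2 arrays (blue) and 3 CRE-ERT2 arrays (red), with the group mean as a black line and every panel spanning the same height. The groups lie apart for Casp2, Casp8 and Casp6 and overlap for the other 5, with the widest scatter for Casp1 and the narrowest for Casp9.

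**Figure D2:**
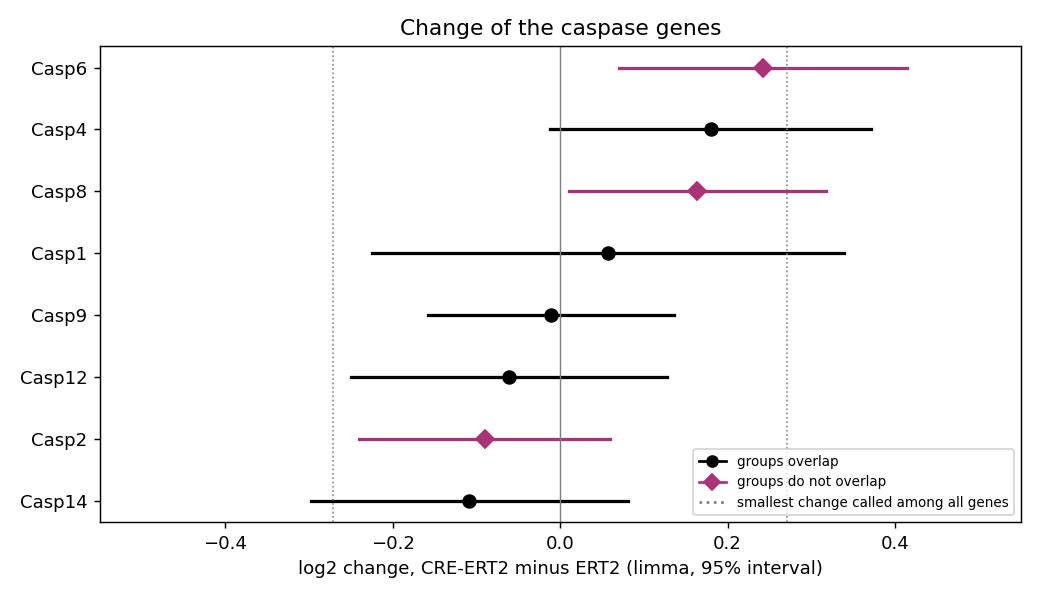
Log2 change of each caspase gene from ERT2 to CRE-ERT2 arrays with its 95% interval from limma; diamonds mark genes whose groups do not overlap. All 8 points lie inside the dotted lines at the smallest change, 0.27, that passed among all genes, and the intervals of Casp6 and Casp8 alone do not include 0.

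The initiator caspases came first in the order of action. Casp8 encodes the protease that death receptors such as Fas and the TRAIL receptor engage through the adaptor FADD. Its log2 expression was 13.63, 13.61 and 13.57 in the ERT2 arrays and 13.73, 13.74 and 13.83 in the CRE-ERT2 arrays. All 3 CRE-ERT2 values lay above all 3 ERT2 values, with a gap of 0.09 between the groups. The change was 0.16 with a standard error of 0.07 and an interval from 0.01 to 0.32, a ratio of 1.12, and it did not pass (limma adjusted p = 0.268). With a trended, robust variance the same difference passed (adjusted p = 0.0272). Its probe set was among the brightest, with 99.5% of the genes tested having a dimmer one.

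Casp9 encodes the initiator that the apoptosome, a wheel of APAF1 and cytochrome c, activates after mitochondria are breached. Its values were 9.09, 9.10 and 9.12 in the ERT2 arrays and 9.10, 9.10 and 9.08 in the CRE-ERT2 arrays. The groups overlapped, and these were the most even values among the 8 genes: the within-group SD was 0.01 in each group, and 0.130% of all genes varied less. The change was -0.01 (interval -0.16 to 0.14, limma adjusted p = 0.972), and its sign turned to 0.01 both after a further quantile normalization and after centring each array on its median.

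Casp2 encodes an initiator that the PIDDosome recruits after centrosome and DNA damage signals. Its values were 12.51, 12.58 and 12.55 in the ERT2 arrays and 12.48, 12.47 and 12.42 in the CRE-ERT2 arrays. Every CRE-ERT2 array read below every ERT2 array, but by a gap of 0.03. The change was -0.09 (interval -0.24 to 0.06, limma adjusted p = 0.613), a ratio of 0.939. Spread within the groups was small here too, since 2.79% of all genes varied less.

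Casp6 encodes an executioner known for cutting nuclear lamins, and showed the largest difference of the 8 genes. Its values were 10.48, 10.43 and 10.49 in the ERT2 arrays and 10.83, 10.58 and 10.72 in the CRE-ERT2 arrays. The groups did not overlap, with a gap of 0.09, and the CRE-ERT2 arrays were spread over 0.25 against 0.05 in the ERT2 arrays. The change was 0.24 with a standard error of 0.08 and an interval from 0.07 to 0.41, a ratio of 1.18, and it did not pass (limma adjusted p = 0.118). It passed after a further quantile normalization, where the change was 0.29 (adjusted p = 0.0467), and came to 0.0658 with the dimmest genes left out and 0.0579 with a trended, robust variance. Exact two-sided permutation tests of Casp2, Casp6 and Casp8 each gave p = 0.1, the smallest that 3 arrays against 3 can give.

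The sequences before the Casp8 and Casp6 start sites are printed because these are the 2 members with the CRE-ERT2 arrays wholly above the others. They are the 250 bases before the start, from RefSeq on the mouse assembly GRCm38.p6 (C57BL/6J, not the strain of these cells), Casp8 at chr1:58802252-58802501 and Casp6 at chr3:129901165-129901414, both on the plus strand. Capitals mark the letters of 5 short motifs searched on both strands, described below.
Casp8: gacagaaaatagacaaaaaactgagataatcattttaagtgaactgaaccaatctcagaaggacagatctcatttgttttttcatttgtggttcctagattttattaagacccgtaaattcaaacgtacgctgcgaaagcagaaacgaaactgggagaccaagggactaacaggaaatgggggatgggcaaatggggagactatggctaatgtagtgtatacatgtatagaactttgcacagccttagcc
Casp6: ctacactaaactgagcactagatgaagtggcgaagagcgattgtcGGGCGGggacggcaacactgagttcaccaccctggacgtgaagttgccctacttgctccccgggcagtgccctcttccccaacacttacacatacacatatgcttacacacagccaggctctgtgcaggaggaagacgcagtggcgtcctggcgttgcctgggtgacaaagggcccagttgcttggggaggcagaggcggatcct
The Casp8 stretch is 39.6% G and C, lower than most (11.0% of 32841 mouse promoter stretches are lower still), and holds none of the motifs. The Casp6 stretch is 58.4% G and C and holds 1 GC box, GGGCGG, the letters bound by Sp factors, whose first base is 205 bases before the start. The GC box occurs in 32.7% of all stretches, and also before Casp9 (4 matches) and Casp2 (1 match). The 2 stretches differ in base composition and share none of the motifs searched. With these motifs in 6.02% to 32.7% of all stretches, sharing none says little about the 2 genes.

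The inflammatory caspases Casp1, Casp4 and Casp12 stand side by side on chromosome 9 in the mouse. Casp1 encodes the protease that matures interleukin-1 beta and interleukin-18. Its values were 8.47, 8.39 and 8.03 in the ERT2 arrays and 8.57, 8.08 and 8.41 in the CRE-ERT2 arrays. Each group held 1 low array, ERT2 replicate 3 and CRE-ERT2 replicate 2, and the groups overlapped over nearly their whole range. The ranges, 0.44 and 0.48, were the widest of the 8 genes, and 99.0% of all genes varied less within groups. The change was 0.06 (interval -0.22 to 0.34, limma adjusted p = 0.917). Its sign depended on single arrays: it was -0.08 without ERT2 replicate 3, -0.05 without CRE-ERT2 replicate 1 and 0.19 without CRE-ERT2 replicate 2.

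Casp4, also called caspase-11 in the mouse, encodes a direct sensor of bacterial lipopolysaccharide inside the cell. Mice of the strain family to which 129P2/OlaHsd belongs are known to carry an inactivating mutation in this gene, which a transcript level need not show. Its values were 6.95, 6.83 and 6.75 in the ERT2 arrays and 6.88, 7.03 and 7.17 in the CRE-ERT2 arrays. The lowest CRE-ERT2 array fell within the ERT2 values, while the other 2 lay above them. The change was 0.18 (interval -0.01 to 0.37, limma adjusted p = 0.348), a ratio of 1.13, and it ranged from 0.11 without CRE-ERT2 replicate 3 to 0.25 without CRE-ERT2 replicate 1.

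Casp12 encodes a caspase linked to the endoplasmic reticulum and to damping of inflammation. Its values were 4.73, 4.53 and 4.55 in the ERT2 arrays and 4.57, 4.66 and 4.40 in the CRE-ERT2 arrays. The groups were interleaved and the change was -0.06 (interval -0.25 to 0.13, limma adjusted p = 0.840), turning to 0.01 without CRE-ERT2 replicate 3 and to 0.00 without ERT2 replicate 1. Its probe set was among the dimmest: 2.37% of genes had a dimmer one. Casp14 is a caspase of the differentiating epidermis. Its values were 6.87, 6.65 and 6.88 in the ERT2 arrays and 6.58, 6.78 and 6.72 in the CRE-ERT2 arrays. These groups overlapped too, and the change was -0.11 (interval -0.30 to 0.08, limma adjusted p = 0.636). Casp4, Casp12 and Casp14 all belong to the dimmest genes, a share of 0.333 by mean level. There the signal over background is unknown and a true change can be compressed, so their intervals bound the array signal and not the RNA. Casp1, Casp4 and Casp12 are related in sequence, and whether their probes read one another is not known here.

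The sequences before the 3 genes of the chromosome 9 cluster are shown because Irf7, Irf9 and Irf1 rose in the same arrays, as given below with the members of that list that did not pass, and caspase-1 and caspase-11 are known as interferon-inducible. They run over chr9:5298267-5298516 for Casp1, chr9:5308599-5308848 for the first of the 2 listed Casp4 starts and chr9:5345226-5345475 for Casp12, all on the plus strand of GRCm38.p6, from RefSeq.
Casp1: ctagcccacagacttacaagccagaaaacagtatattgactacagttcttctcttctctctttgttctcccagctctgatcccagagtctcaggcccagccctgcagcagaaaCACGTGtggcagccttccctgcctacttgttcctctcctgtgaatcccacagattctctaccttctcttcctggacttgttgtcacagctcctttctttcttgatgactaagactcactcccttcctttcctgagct
Casp4: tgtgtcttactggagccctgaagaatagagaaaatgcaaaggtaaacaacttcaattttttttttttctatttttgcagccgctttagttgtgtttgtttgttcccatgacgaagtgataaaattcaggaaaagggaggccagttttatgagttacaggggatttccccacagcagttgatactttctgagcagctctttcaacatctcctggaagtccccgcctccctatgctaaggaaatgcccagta
Casp12: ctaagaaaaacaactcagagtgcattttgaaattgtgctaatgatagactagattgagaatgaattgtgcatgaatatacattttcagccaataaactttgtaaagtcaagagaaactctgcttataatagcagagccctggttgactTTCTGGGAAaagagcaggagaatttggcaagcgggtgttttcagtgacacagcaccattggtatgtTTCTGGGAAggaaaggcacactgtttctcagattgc
The capitals in Casp1 are an E-box, CACGTG, found in 6.02% of all stretches, and those in Casp12 are 2 matches to the STAT core TTCNNNGAA, found in 7.02%, starting 102 and 36 bases before the start. The interferon response element core GAAANNGAA occurs in 7.13% of all stretches and in 0 of the 8 caspase stretches, and the ETS core CCGGAAG in 6.91% and also 0 of 8. Neither the second Casp4 start nor any element farther out was searched. G and C made up 49.2% of the Casp1, 41.6% of the Casp4 and 39.2% of the Casp12 stretch, with 1, 3 and 1 CG pairs, against medians of 52.4% and 6 over all stretches. The stretches of Casp9 (66.0%), Casp2 (60.4%) and Casp14 (54.4%) lay above that median.

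Some of the genes that work with caspases passed the test. Across 8 lists with 95 distinct genes measured, limma called 8 higher and 3 lower and left 84 uncalled, which is 11.6% against 4.58% of all genes. The median change was -0.02 against -0.03. Since the lists were put together with earlier results of these data known, the share is a description. The counts of each list below are to be read beside 4.58% of all genes called and 16.4% at an unadjusted p under 0.05. In the lists with a call, that unadjusted limma count was 3 of 8 apoptosome and 4 of 13 death receptor genes. It was 5 of 21 inflammasome, 2 of 6 CARD protein and 7 of 13 promoter factor genes. All 11 calls were lost when the 35556 probe sets were tested together (adjusted p from 0.0593 to 0.199).

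**Figure D3:**
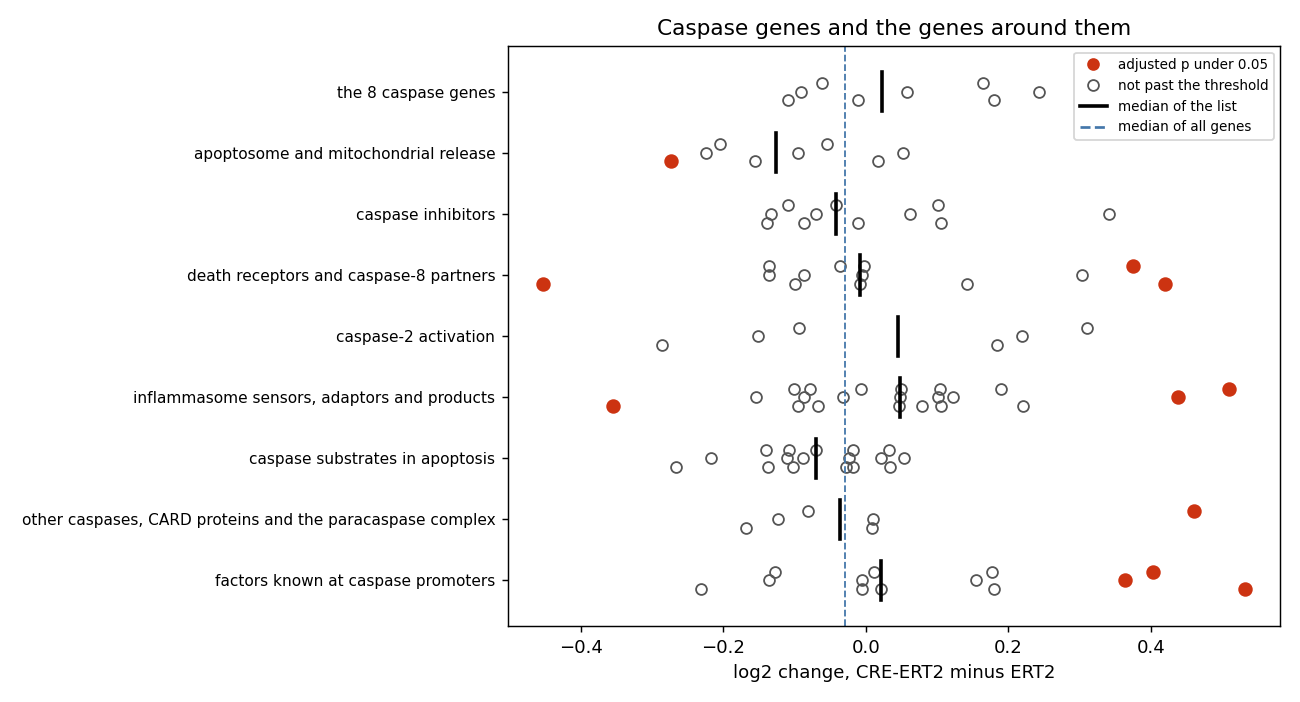
Log2 change from ERT2 to CRE-ERT2 arrays (horizontal axis) for the 8 caspase genes and for each list of genes around them, one point a gene, filled red where the limma adjusted p is under 0.05. No caspase gene is filled, while death receptor, inflammasome, CARD protein and promoter factor genes include filled points on the right beyond 0.36 and Mlkl at -0.45 is the farthest on the left.

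Among 13 measured death receptor genes and partners of caspase-8, 2 rose and 1 fell. The 10 others did not reach the threshold, and the median change was -0.01. Tnfrsf10b, the receptor for the death ligand TRAIL, rose from 8.70 ± 0.07 to 9.12 ± 0.11 (SD, n = 3 each), a change of 0.42 (limma adjusted p = 0.00798). Tnf, a cytokine that can engage caspase-8 through its receptor, rose from 11.92 ± 0.17 to 12.29 ± 0.06 (SD, n = 3 each), a change of 0.37 (limma adjusted p = 0.0311). Mlkl, the executor of necroptosis, the form of death that caspase-8 holds back, fell from 8.75 ± 0.19 to 8.29 ± 0.05 (SD, n = 3 each), a change of -0.45 (limma adjusted p = 0.0135). Tnf lost its call when ERT2 replicate 1 was left out (adjusted p = 0.0980), and likewise for CRE-ERT2 replicate 1 (0.108), 2 (0.0863) or 3 (0.0936). Mlkl lost its call without ERT2 replicate 1 (0.0716) or CRE-ERT2 replicate 3 (0.0670), while Tnfrsf10b passed whichever array was left out. The adaptor gene Fadd changed by -0.09 and the death receptor gene Fas by 0.30, and neither passed (limma adjusted p = 0.716 and 0.0602).

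The inhibitors of caspases gave 0 calls among 11 genes measured with limma (1 at an unadjusted p under 0.05), with a median change of -0.04. The nearest to the threshold were Xaf1, which antagonises the inhibitor XIAP, at 0.34 (limma adjusted p = 0.0640), and Cflar at -0.14 (0.483). Cflar encodes c-FLIP, the decoy that blocks caspase-8, and lies next to Casp8 in the genome. Its other 2 probe sets changed by 0.03 and -0.03. Xiap, the direct inhibitor of caspase-9, changed by -0.01 (interval -0.19 to 0.17).

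Of 8 genes of the apoptosome and of mitochondrial release, 1 fell and none rose. The median change was -0.13, and the CRE-ERT2 arrays lay wholly below the ERT2 arrays for 5 of the 8, against 15.5% of all genes. That share covers genes of all levels, while the mean level of this list was 11.33 to 11.41 in the ERT2 arrays. With the dimmest 0.333 of genes left out, calls leaned downward, 720 lower and 540 higher. The share among genes as bright as these was not computed. Htra2, a mitochondrial protease that relieves XIAP inhibition, went from 11.95 ± 0.02 to 11.68 ± 0.06 (SD, n = 3 each), a change of -0.27 that passed narrowly (limma adjusted p = 0.0477). That call was lost whichever of the 6 arrays was left out (adjusted p from 0.0705 to 0.217) and after both rescalings (0.0861 and 0.0859). Bid, the link by which caspase-8 reaches mitochondria, changed by -0.22 and did not pass (adjusted p = 0.115). Apaf1 changed by 0.02 and Cycs, which encodes cytochrome c, by 0.05. The other Cycs probe sets changed by 0.04 and, at a mean level of 7.72, by -0.29 (limma unadjusted p = 0.185).

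The inflammasome list held 21 measured genes, of which 2 rose and 1 fell, while 18 stayed short of the threshold. The median change was 0.05. Nlrc4, the sensor platform that recruits caspase-1 on bacterial flagellin, rose from 7.27 ± 0.07 to 7.78 ± 0.12 (SD, n = 3 each), a change of 0.51 (limma adjusted p = 0.00267), and kept its call whichever array was left out. Gbp5, an interferon-induced GTPase, rose by 0.44 (limma adjusted p = 0.0144). Ninj1, which ruptures the membrane at the end of lytic death, fell by 0.35 (limma adjusted p = 0.0129). Gbp5 did not pass without CRE-ERT2 replicate 1 (0.0712) or 3 (0.0949), nor Ninj1 without CRE-ERT2 replicate 2 (0.0571) or 3 (0.0863). The adaptor gene Pycard changed by 0.22, the gasdermin gene Gsdmd by 0.11 and Il1b by -0.07, and these 3 did not pass.

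Genes for caspase-2 activation gave 0 calls among 6 measured with limma (3 at an unadjusted p under 0.05). Chek1, a checkpoint kinase that restrains caspase-2, changed by -0.29 (limma adjusted p = 0.0527), and the PIDDosome genes Cradd and Pidd1 by 0.31 and 0.18 (0.147 and 0.369). Of 17 genes whose proteins caspases cut or that carry out the cleavage programme, 0 passed (2 at an unadjusted p under 0.05), with a median of -0.07. Gas2, a cytoskeletal substrate, changed by -0.27 and Lmnb1, the gene for lamin B1, by -0.22 (adjusted p = 0.0738 and 0.187). In the list of CARD proteins and the paracaspase complex, Card6 rose by 0.46 (limma adjusted p = 0.00989) and 5 genes did not pass. Card6 was lost without CRE-ERT2 replicate 1 (0.0541) or 3 (0.0519).

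Among 13 measured transcription factors known to act at caspase promoters, 3 rose and 0 fell, the other 10 stayed short of the threshold, and the median change was 0.02. The 3 were Irf7, Irf9 and Irf1, while Irf2 (-0.01), Irf8 (-0.13) and Stat2 (0.18) of the same list did not pass. Irf7 rose from 7.71 ± 0.08 to 8.25 ± 0.18 (SD, n = 3 each), a change of 0.53 (limma adjusted p = 0.00451). Irf9, which takes part in the response to type I interferon, rose by 0.40 (limma adjusted p = 0.0163), and Irf1 by 0.36 (0.0168). A second Irf1 probe set changed by 0.15, and the mean of the 2 did not pass (0.0705). Irf9 was lost without ERT2 replicate 1 (0.0804) or CRE-ERT2 replicate 1 (0.0766), and Irf1 without CRE-ERT2 replicate 1 (0.0730). In the same arrays the chromosome 9 caspase genes Casp1 and Casp4 changed by 0.06 and 0.18 without passing. Whether those changes differ from the changes of the factors was not tested.

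**Figure D4:**
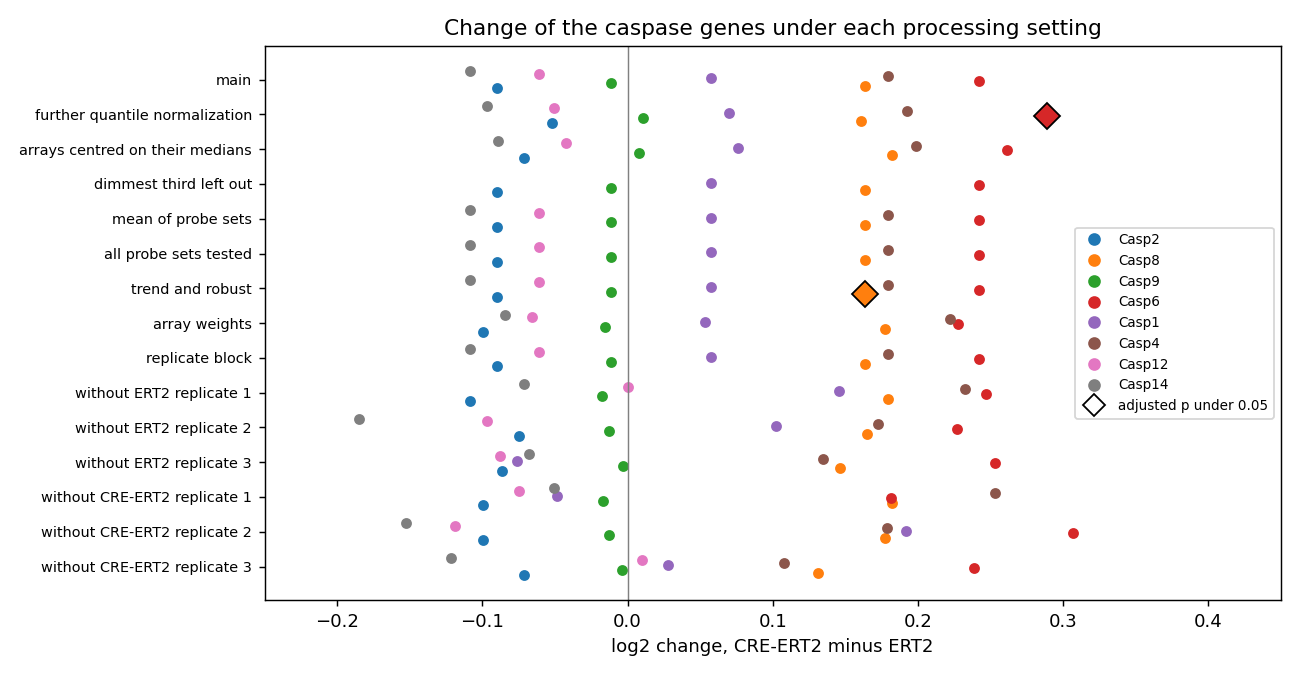
Log2 change of each caspase gene (horizontal axis, one colour a gene) under the reported setting, labelled main, and 14 others; large diamonds mark an adjusted p under 0.05. Casp6 passes after a further quantile normalization and Casp8 with a trended, robust variance, and Casp1, Casp9 and Casp12 cross 0 in some settings.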

How the data were processed

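Biotin-labelled total RNA of 6 samples was read on Affymetrix arrays, per the labels' protocols. The authors deposited a log2 value for each probe set on each array. The submitters' processing notes name RMA and Partek 6.5, and the log2 scale was read from the range. Scanner files and scan dates were not used here.

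Of 35556 probe sets, 21789 are assigned to a single gene; the brightest per gene gave 19938 genes. Groups and replicate numbers came from the sample titles. limma 3.58.1 in R 4.3.3 (lmFit, eBayes, two-sided, group as the only term) was fitted over all genes with a threshold of 0.05, after being tested on simulated data. The labels name no separate cultures, so the spread behind each p-value may be technical. The alternatives were other normalizations, filters, probe set rules and variance models, the replicate number as a block and leaving out each array.

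The 8 genes, the lists and the motifs were chosen with earlier results of these data known. The text names all 8 members and, of each of the 8 pathway lists, up to 5 passing genes or the 2 with the smallest p; of the marker lists it names only passing genes; Fadd, Fas, Xiap, Bid, Apaf1, Cycs, Pycard, Gsdmd, Il1b, Pidd1, Irf2, Irf8, Stat2 and the pre-B genes were chosen after their values were seen. Genes most like a passing member were to be named, and no member passed. Promoter sequences matched all 8 members by symbol. Only the first listed start of each member was searched, while the percentages cover all 32841 stretches.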

Additional observations from a re-analysis of the deposited data

How the results depend on the processing

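Over 14 alternative settings the caspase genes gave 109 results, of which 2 passed: 1 member was called after a further quantile normalization (Casp6, log2 change 0.29) and 1 with a trended, robust variance (Casp8, 0.16). The sign turned in 6 of them, to values from -0.0760 to 0.0105. Casp9 turned to 0.0105 after quantile normalization and 0.00762 after centring. Casp1, at 0.0572 in the main setting, turned to -0.0760 without ERT2 replicate 3 and -0.05 without CRE-ERT2 replicate 1. Its highest value was 0.192, without CRE-ERT2 replicate 2. Casp12, at -0.119 without CRE-ERT2 replicate 2, turned to 0.000488 without ERT2 replicate 1 and 0.00982 without CRE-ERT2 replicate 3. Leaving out single arrays called 0 members each time. Over all genes, 914 passed (50.2% higher), against 892 after quantile normalization (60.9% higher), 1544 with a trended, robust variance (38.0% higher), 298 of all probe sets (63.1% higher), 1260 with the dimmest 0.333 of genes left out (42.9% higher) and 453 to 979 when 1 array was left out. The cause of these shifts was not tested.

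With the replicate number as a block, 589 genes and 0 caspase genes passed, and Htra2 (adjusted p = 0.135), Tnf (0.0716) and Ninj1 (0.0535) did not. Same-numbered arrays did not deviate together (correlations -0.11, -0.37 and -0.07), so the numbers were not read as pairs. Some differently numbered arrays had positive correlations. Deviations from the mean of 3 arrays sum to 0 within each group, so negative values for some combinations go with positive ones for others. The correlation was 0.45 for ERT2 replicate 2 with CRE-ERT2 replicate 1 and 0.40 for ERT2 replicate 3 with CRE-ERT2 replicate 2. It was 0.18 for ERT2 replicate 1 with CRE-ERT2 replicate 3, and the remaining combinations ran from -0.32 to -0.04. These correlations therefore cannot show that any of the arrays share something, which was not tested. Casp4, Casp12 and Casp14 gave no value with the dimmest 0.333 of genes left out. Only 3 arrays a group and an unknown signal over background limit what could be detected.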

Other observations

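The genes on either side of the caspase genes were read from the gene order of GRCm38.p6, 2 protein-coding genes each way. Of 24 such neighbours 22 were measured, and 1 passed with limma (4.55%, against 4.58% of all genes), with a median log2 change of -0.06. It was Syde1, which lies near Casp14, at -0.39 (limma adjusted p = 0.0127). Beside Casp6 at 0.24, the next gene Pla2g12a, a secreted phospholipase gene, changed by -0.26 (adjusted p = 0.108), with its groups also apart but in the other direction. Around Casp8 at 0.16, Flacc1, Cflar and Trak2 changed by -0.10, -0.14 and -0.09. In the chromosome 9 cluster the outer neighbours Gria4 and Pdgfd changed by -0.02 and -0.04. Among all of these, Syde1 alone passed, and differences between neighbours were not tested.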
